A study of Danio rerio with 36 samples.

Results

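The 9 arrays described here come from zebrafish (Danio rerio) embryos at the stage labelled 21-somites, about 24 hours post fertilization (hpf). The groups are set by the labels for stage and dose: 3 arrays of embryos held in 5 mM MTBE, short for methyl tert-butyl ether, a petrol additive,, set against 6 arrays of embryos held in 0.625 mM (3 arrays) or 0.00625 mM (3 arrays). They are 9 of the 36 arrays of the study. All embryos carried the transgene Tg(fli1a:EGFP)y1, in which the promoter of fli1a drives green fluorescent protein in blood vessel cells among others. Exposure took place at 25 °C in sealed glass vials from about 3 hpf until collection, and 15 whole embryos were pooled for each replicate. The replicate is therefore a pool, and the p-values measure the spread between pools. No unexposed embryos enter the comparison. The 3 control arrays of the stage are quoted beside a few genes as a measured level only, and control replicate 1 stood apart from the others, with a mean level over 51 yolk and lipid transport genes of 4.40, against 5.50 and 5.50 in control replicates 2 and 3. Because RNA came from whole embryos, fewer cells of a type and less RNA per cell cannot be told apart.

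MTBE has been studied in zebrafish embryos as a toxicant of developing blood vessels. In the embryo, vessels form under the control of vascular endothelial growth factors (Vegf) and their receptors. The genes for these factors are among those that low oxygen induces through hypoxia-inducible factors. At the 21-somites stage the heart tube, the fast and slow muscle of the somites, the first neurons, the lens and the pigment cell precursors are all being formed, and the yolk syncytial layer delivers lipid and protein to the embryo. A comparison of 5 mM with lower doses asks whether the highest dose moved any of these programmes beyond what the lower doses did.

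The values are on a log2 scale, on which 1 unit is a 2-fold difference. Array medians of the 9 arrays lay between 3.54 and 3.59. Correlations across probe sets, which are not independent replicates, ranged between 0.9926 and 0.9960 for a 5 mM array and a lower-dose array. The same range was 0.9939 to 0.9952 among the 5 mM arrays and 0.9923 to 0.9958 among the lower-dose arrays. Levels of tissue genes were read against a probe set taken as a mark of detection. A level above the probe set for DsRed1, a coral protein that the labels do not list in these fish (mean 2.18 over 27 arrays), was seen for 31 of 32 fast muscle genes, 15 of 17 heart genes and 26 of 32 blood vessel genes, and for 72.6% of all probe sets. It was seen for 39 of 51 neuron genes, 18 of 25 eye and lens genes and 26 of 43 xenobiotic metabolism genes. These last shares lay near or below that of all probe sets, so they do not show detection of those lists beyond any probe sets. The probe set for EGFP itself read 2.27, 2.41 and 2.98 on the 5 mM arrays, and 2.56, 2.79 and 2.95 as the lowest, median and highest of the lower-dose arrays. The groups overlapped (exact permutation test, two-sided, p = 0.25), and EGFP lay below the probe set for AsRed2, a further protein that the labels do not list (mean 3.02). The DsRed1 level is thus a lenient mark of detection. The vessel genes kdrl (2.05) and tie1 (2.73) lay below AsRed2, while fli1 (5.64) and plxnd1 (6.38) lay above it.

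No gene passed the test between 5 mM and lower-dose embryos at this stage. Of 15502 probe sets, 0 (0%) passed an adjusted p of 0.05 in limma, and the smallest adjusted p was 0.794. An unadjusted p under 0.05 was reached by 492 probe sets (3.17%), of which 212 lay higher at 5 mM (1.37%) and 280 lower (1.81%). That share is below the 5% that this threshold admits when nothing differs, but it rests on a spread taken from the MTBE arrays of all 3 stages. The count was 915 with only the 9 arrays of this stage and 1019 with array weights, both above 5% of the probe sets. It was 427 with all 36 arrays and 484 with a replicate block. The 3 arrays at 5 mM lay wholly outside the range of the 6 lower-dose arrays for 392 probe sets (2.53%), 168 above it (1.08%) and 224 below it (1.44%). The differences in signal are bounded. The 95% confidence interval of the difference lay within 2-fold either way for 15498 probe sets (99.97%) and within 1.5-fold for 15262 (98.45%), with a median half-width of 0.24. These counts include probe sets no brighter than DsRed1, since 72.6% of all lay above it. For such dim probe sets a narrow interval bounds the signal and not the RNA. The 4 probe sets whose interval reached beyond 2-fold belong to epdl2, egln3, LOC567909 and si:ch1073-340i21.3. The last of these differed by 0.53, with an interval of -0.03 to 1.09.

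**Figure D1:**
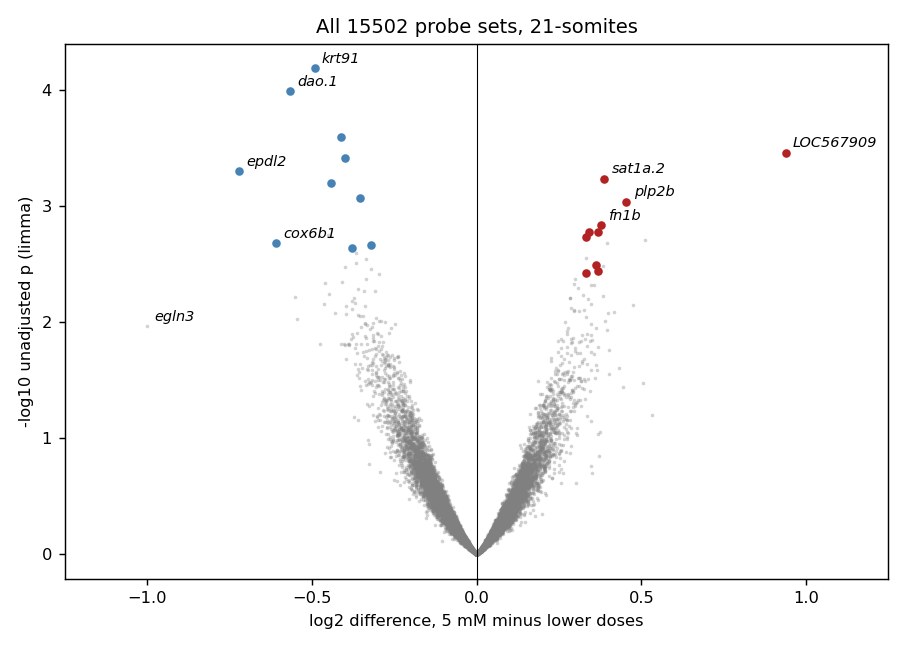
Each point is 1 of 15502 probe sets, with the log2 difference (5 mM minus lower doses) on the x axis and -log10 of the unadjusted limma p on the y axis. Coloured points are the 10 genes with the smallest p in each direction, red higher and blue lower at 5 mM, and none of them passes after adjustment (smallest adjusted p 0.794).

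The genes with the smallest p in each direction, none of which passed the test, are given next. Among the 10 that lay higher at 5 mM, sat1a.2 encodes a spermidine and spermine acetyltransferase of polyamine breakdown. It read 7.04, 7.08 and 7.06 at 5 mM, against a lowest value of 6.48, a median of 6.65 and a highest of 6.88 at the lower doses. The groups did not overlap and the 5 mM arrays lay close together, with a difference of 0.39 ± 0.10 (SE). The gene plp2b, for a membrane protein of the proteolipid family, read 5.26, 5.68 and 5.44 at 5 mM, against 4.85, 5.00 and 5.20 at the lower doses. The groups again did not overlap, and the difference was 0.45 ± 0.12 (SE). Fibronectin is the extracellular matrix protein on which somite boundaries and the heart primordia assemble. Its gene fn1b read 4.12, 4.19 and 4.1 at 5 mM, against 3.54, 3.78 and 3.96 at the lower doses (difference 0.38 ± 0.11, SE), without overlap.

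The gene model LOC567909 had the largest difference of the higher genes, 0.94 ± 0.23 (SE), with an interval of 0.46 to 1.41. It read 4.72, 4.64 and 5.01 at 5 mM, against 3.02, 3.80 and 4.80 at the lower doses. Its groups overlapped, and the lower-dose arrays themselves spread over more than 1.5 units. By dose, it read 3.02, 3.31 and 4.30 at 0.00625 mM, 3.21, 4.45 and 4.80 at 0.625 mM, and the 5 mM values just given, while the controls read 2.83, 3.14 and 3.86. Replicate 3 was the highest array at each MTBE dose. With a replicate block the adjusted p of the difference was 0.0618 (limma), which still did not pass. The other 6 genes of this group were elac1 (transfer RNA processing), nfs1 (iron-sulfur cluster assembly), msl1b (a histone acetylation complex), stx5al (a syntaxin), fbxo44.9 (an F-box protein) and zgc:92594. Their differences lay between 0.33 and 0.37. A further probe set for stx5al pointed the other way, and both stx5al and zgc:92594 were dimmer than the AsRed2 probe set.

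Among the 10 genes that lay lower at 5 mM, dao.1, a D-amino acid oxidase gene, read 5.29, 5.20 and 5.11 at 5 mM, against 5.35, 5.71 and 6.09 at the lower doses. The groups did not overlap, and the difference was -0.57 ± 0.13 (SE), with an adjusted p of 0.794 (limma). The 3 control arrays read 4.53, 6.00 and 5.44, where the lowest is control replicate 1. The gene epdl2, an ependymin-like secreted protein, read 4.42, 5.41 and 5.69 at 5 mM, against 5.57, 5.93 and 6.15 at the lower doses. Its groups overlapped and 1 of the 5 mM arrays stood well below the rest, with a difference of -0.72 ± 0.19 (SE), or -0.35 without that array, 5 mM replicate 1. The gene cox6b1, for a subunit of cytochrome c oxidase, read 2.12, 2.37 and 2.82 at 5 mM, against 2.63, 2.97 and 3.46 at the lower doses, with overlap (difference -0.61 ± 0.18, SE). Its 5 mM arrays all lay below the AsRed2 mean of 3.02, and with 50 added on the linear scale the difference was -0.07.

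The remaining lower genes differed by less. For efr3a, which anchors a lipid kinase at the plasma membrane, the arrays read 3.03, 2.96 and 2.89 at 5 mM and 3.16, 3.42 and 3.54 at the lower doses, without overlap. For zgc:66156 the highest 5 mM array lay just under the lowest lower-dose array. The genes rab3gap1 (a regulator of Rab3), glg1a (a Golgi glycoprotein), gria2b (a glutamate receptor subunit) and ndufa4b (a cytochrome oxidase subunit) differed by -0.38, -0.32, -0.41 and -0.35. Of these, gria2b and ndufa4b lay below the DsRed1 signal. In all, 14 of the 20 leading genes had groups that did not overlap, a count that their choice by p favours. The 20 genes pointed the same way at 6-somites in 15 cases, against 53.4% of all probe sets, and at Prim-5 in 8 cases, against 43.5% of all probe sets.

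**Figure D2:**
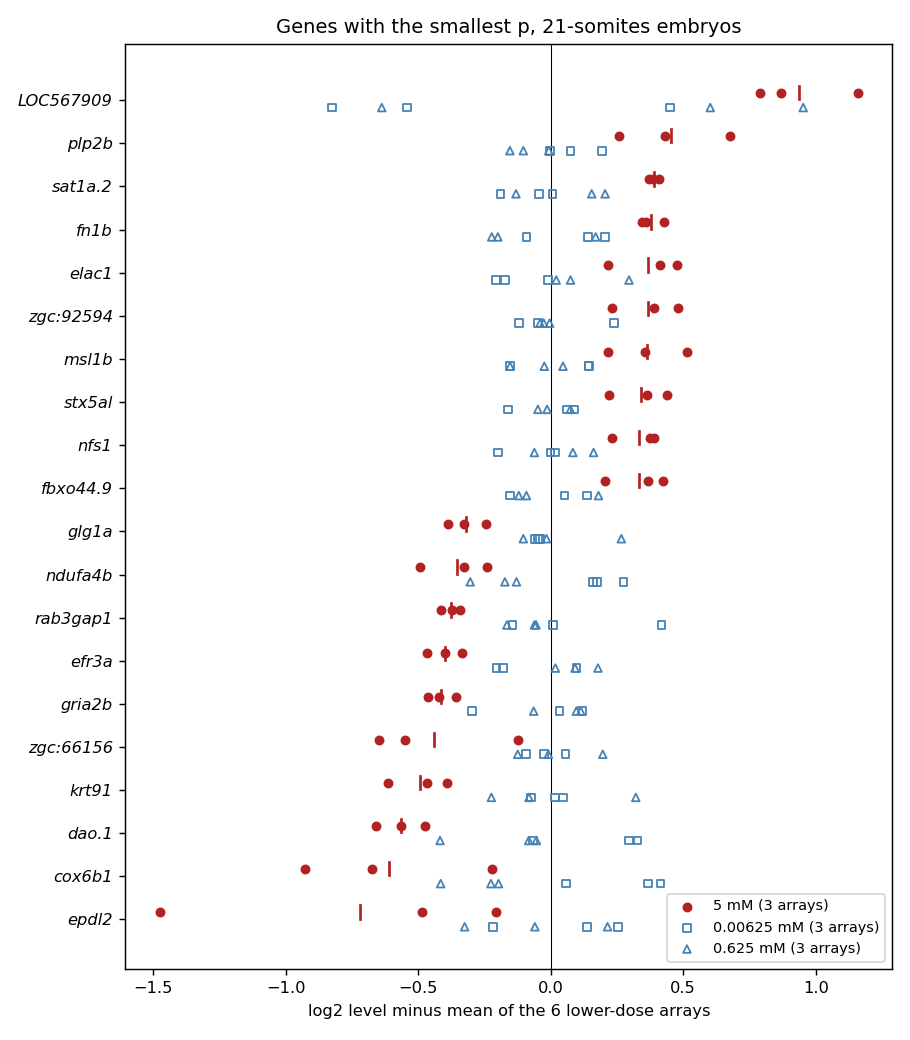
Each row is 1 of the 20 genes with the smallest p, and the x axis gives the log2 level of each array minus the mean of the 6 lower-dose arrays. Filled red circles are the 3 arrays at 5 mM with their mean as a bar, and open blue symbols are the arrays at 0.00625 mM (squares) and 0.625 mM (triangles). LOC567909 spreads most widely among the lower doses, and 1 array of epdl2 at 5 mM stands apart.

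The keratin gene krt91 had the smallest p of all. Keratins form the intermediate filaments of epithelial cells, in the embryo those of the skin. At 21-somites krt91 read 3.94, 3.87 and 3.72 at 5 mM, against 4.11, 4.30 and 4.65 at the lower doses. The groups did not overlap, and the means were 3.84 ± 0.11 at 5 mM and 4.33 ± 0.18 at the lower doses (SD, n = 3 and 6). The difference was -0.49 ± 0.11 (SE), with an interval of -0.71 to -0.27 and an adjusted p of 0.794 (limma). The control arrays of the stage read 4.35, 4.38 and 4.42, at the level of the lower doses. Over the 39 genes of the epidermis list the median difference was 0.01, and 18 lay lower (all probe sets 52.4%). Among its other keratin genes, krt94 differed by -0.16 and krt18a.1 by 0.12. The differences of krt4, krt5, krt8, krt17, krt97 and krt99 were under 0.04 either way.

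The differences at the other stages did not enter the p by which krt91 was picked, although the spread of those arrays did, through the common fit. At 6-somites (about 15 hpf) it read 3.82, 3.59 and 3.82 at 5 mM, against 3.92, 4.1 and 4.45 at the lower doses. The difference was -0.39 (adjusted p 0.289, limma). The lower doses did not overlap each other there. Their arrays read 4.19, 4.45 and 4.24 at 0.00625 mM, and 3.92, 3.96 and 4.02 at 0.625 mM. The -0.39 is therefore taken from a mean raised by 0.00625 mM, and the 5 mM arrays lay closer to 0.625 mM. At Prim-5 (about 30 hpf) krt91 read 4.74, 4.92 and 4.72 at 5 mM, against 4.99, 5.15 and 5.29 at the lower doses. The difference was -0.34 (adjusted p 0.746, limma). Here the lower doses overlapped, at 5.12, 4.99 and 5.29 for 0.00625 mM and 5.17, 5.20 and 5.07 for 0.625 mM. The 5 mM arrays thus lay below every lower-dose array at all 3 stages, which held for 1 of 15502 probe sets (0.00645%), krt91 itself. Over the other stages alone, in a comparison chosen after the values were seen, the mean difference was -0.36 ± 0.08 (SE), with an unadjusted p of 3.37e-05 and an adjusted p of 0.261 (limma).

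The mean over the 3 stages was -0.41 ± 0.06 (SE), and in this comparison krt91 fell with an adjusted p of 0.00327 (limma), the sole probe set of 15502 to pass (0.00645%). This comparison was added after the values were seen and includes the stage that pointed to the gene. The control arrays do not follow the same order. At 6-somites they read 3.48, 3.57 and 3.48, below the 5 mM arrays, and at Prim-5 they read 5.04, 4.69 and 4.76, across the 5 mM range. A further krt91 probe set, which the manufacturer marks as able to cross-hybridise, differed by -0.35 at 21-somites with overlapping groups, and by -0.29 over the 3 stages with an adjusted p of 0.84 (limma). The probe sets therefore share a direction but not the call.

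**Figure D3:**
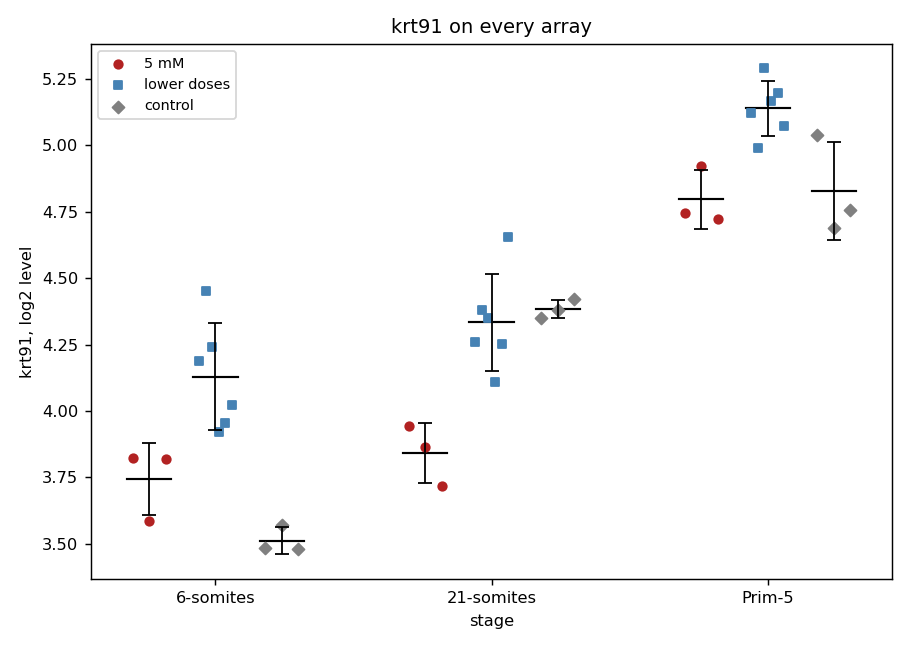
Log2 level of krt91 on every array by stage, with 5 mM left (red circles, 3 arrays), lower doses in the middle (blue squares, 6 arrays) and control right (grey diamonds, 3 arrays). Bars are means with SD, and the 5 mM arrays lie below all lower-dose arrays at each stage while the control arrays change place.

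Dose by dose, the comparisons again gave no call. Against 0.625 mM, 0 of 15502 probe sets passed (0%), with a smallest adjusted p of 0.999 (limma) and 546 probe sets at an unadjusted p under 0.05 (3.52%). Against 0.00625 mM, 0 passed (0%), with a smallest adjusted p of 0.151 and 376 at an unadjusted p under 0.05 (2.43%). Between 0.625 mM and 0.00625 mM, 0 passed as well (0%), with a smallest adjusted p of 1.00 (limma) and 382 at an unadjusted p under 0.05 (2.46%). The 2 comparisons of 5 mM with a single dose share the 5 mM arrays. The leading genes of 5 mM against 0.00625 mM were dao.1 at -0.75 and the dim ndufa4b at -0.55, both with an adjusted p of 0.151 (limma), and LOC567909 at 1.24. Against 0.625 mM they were plp2b at 0.54, farp2 at 0.52 and fn1b at 0.46 on the higher side, and efr3a and krt91 at -0.50 each on the lower side.

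The largest difference of 5 mM from the lower doses was that of a hypoxia response gene, which was high on arrays of the lowest dose. The gene egln3 encodes a prolyl hydroxylase that hypoxia-inducible factors induce. It read 4.67, 2.97 and 5.03 at 0.00625 mM, 2.84, 2.32 and 2.23 at 0.625 mM, and 2.31, 2.54 and 2.18 at 5 mM, while controls read 2.79, 3.97 and 2.76. Replicates 1 and 3 at 0.00625 mM stood apart, and the 5 mM arrays overlapped those at 0.625 mM. The difference of 5 mM from both lower doses was -1.0 ± 0.37 (SE), with an interval of -1.75 to -0.25. The collagen prolyl hydroxylase gene p4ha1b read 6.60, 6.21 and 6.53 at 0.00625 mM, 5.80, 5.75 and 5.38 at 0.625 mM, and 5.40, 5.53 and 5.55 at 5 mM. Here every 0.00625 mM array was above every other MTBE array, and the controls read 5.50, 5.96 and 5.94. The stress gene ddit4 read 4.0, 3.56 and 3.95 at 0.00625 mM, 3.62, 3.31 and 3.30 at 0.625 mM, and 3.47, 3.45 and 3.39 at 5 mM, with replicates 1 and 3 at the lowest dose the highest of the MTBE arrays. The gene ddit4 was picked for this order. The order held for 6 of the 25 hypoxia genes measured (egln3, p4ha1b, ddit4, igfbp1a, epoa and bnip3lb), and for 353 of all 15502 probe sets (2.28%), a tally made after the values were seen. The 6 include egln3 and p4ha1b, in which the order was seen, and ddit4, so the tally is not a test. In epoa, which lay below the DsRed1 signal, replicate 3 at 0.00625 mM read 1.92, against 1.90 for the next MTBE array. In bnip3lb these values were 4.93 and 4.89. The order did not hold for pfkfb3, a regulator of glycolysis, which read 2.72, 2.96 and 2.57 at 0.00625 mM, 2.93, 2.92 and 3.09 at 0.625 mM, and 2.47, 2.30 and 2.76 at 5 mM.

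None of these genes passed the test. Within the hypoxia list, the median difference was -0.10, with 16 members lower at 5 mM. An unadjusted p under 0.05 was reached by 5 of 25 members on the lower side (all probe sets 1.81%). They were egln3 and p4ha1b, described above as high on arrays of the lowest dose, with hif1an at -0.35, jmjd6 at -0.35 and pfkfb3 at -0.35. In hif1an the 0.00625 mM arrays (5.79, 5.83 and 6.17) also lay above the other MTBE arrays of the stage.

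**Figure D4:**
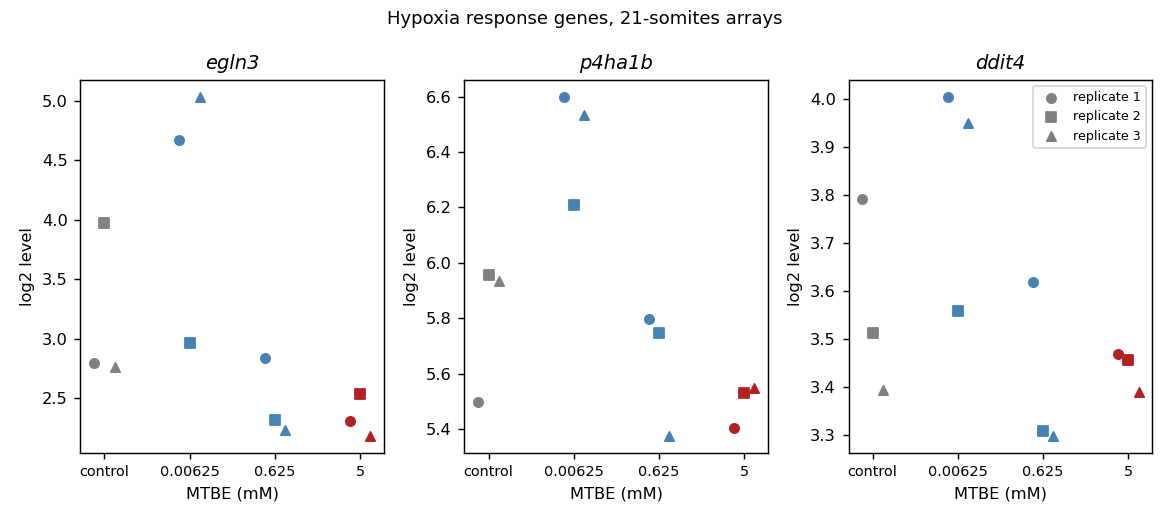
Log2 levels of 3 hypoxia response genes on the 12 arrays of the 21-somites stage, by MTBE dose (control, 0.00625, 0.625 and 5 mM), with the symbol giving the replicate number. In egln3 and ddit4, replicates 1 and 3 at 0.00625 mM are the highest of the MTBE arrays, and in p4ha1b all 3 arrays at that dose are.

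The Vegf genes overlapped between the groups. The gene vegfaa, the main vessel growth factor, read 1.98, 1.65 and 1.96 at 5 mM, against 1.63, 1.73 and 1.89 at the lower doses, with overlap and below the DsRed1 signal. Its difference was 0.12 ± 0.11 (SE), and 0.06 to 0.22 when 1 array of 5 mM was left out. The lymphatic and venous factor vegfc read 2.69, 3.14 and 3.24 at 5 mM, against 2.57, 2.99 and 3.41 at the lower doses, a difference of 0.00 ± 0.15 (SE). No probe set was matched to vegfab. Over the 32 blood vessel genes the median difference was -0.02, a sign that turned under quantile normalization, and 18 lay lower (all probe sets 52.4%). The angiopoietin receptor tek read 2.85, 3.01 and 2.88 at 5 mM, against 3.05, 3.2 and 3.35 at the lower doses, without overlap (difference -0.28 ± 0.11, SE). The receptor flt4 differed by -0.25, the ligand angpt2b by -0.28 and the junction protein cldn5a by 0.24, all with overlap. The mean level of angpt2b (2.19) lay at the DsRed1 signal, and that of tek (3.02) at the AsRed2 signal.

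Across the 30 gene lists, 0 of 996 genes passed the test, and list medians stayed between -0.13 and 0.07 (all probe sets -0.01). The mean level of a list lay outside the lower-dose range in 4 of the 30 lists, each time on the lower side. This held for 3 of them after quantile or cyclic loess scaling (not xenobiotic metabolism) and for the heart list alone with 50 added on the linear scale. The lists are not independent, since they share arrays and some genes. Of single probe sets, 1.44% lay wholly below the lower-dose range. Beside the counts of lower genes that follow, 52.4% of all probe sets lay lower. For glycolysis, the list means were 4.43, 4.48 and 4.54 at 5 mM, against 4.55, 4.59 and 4.62 at the lower doses, and 21 of 26 genes lay lower (median -0.13), the nearest arrays of the groups all but touching, with pgam1a, a phosphoglycerate mutase, at -0.27 and aldocb, an aldolase, at -0.24. For the heart, they were 4.22, 4.2 and 4.18 at 5 mM, against 4.26, 4.29 and 4.35 at the lower doses, and 13 of 17 genes lay lower (median -0.10), with the myosin gene myh7 at -0.29 and the transcription factor gene gata4 at -0.26. For neurons, they were 3.46, 3.46 and 3.44 at 5 mM, against 3.49, 3.53 and 3.54 at the lower doses, and 40 of 51 genes lay lower (median -0.07). The gaps between groups in these lists are under 0.1. The fourth list, of xenobiotic metabolism, had means of 3.19, 3.19 and 3.21 at 5 mM, against 3.22, 3.25 and 3.28 at the lower doses, and 27 of 43 genes lay lower, with cyp1c1, a cytochrome P450 of the dioxin response, at -0.27.

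No muscle gene passed the test. Of 32 fast muscle genes 25 lay lower (median -0.08; all probe sets 52.4% lower), and the list means overlapped between the groups. By dose, the list median was -0.10 against 0.625 mM and -0.02 against 0.00625 mM. The cardiac and skeletal actin gene actc1b read 8.64, 8.91 and 9.08 at 5 mM, against 9.05, 9.17 and 9.41 at the lower doses. Its groups overlapped (-0.34 ± 0.11, SE). Of the 4 slow muscle genes 1 lay lower. Among the 12 myogenic transcription factors, myod1, which commits cells to muscle, read 4.29, 4.15 and 4.53 at 5 mM, against 3.88, 4.02 and 4.11 at the lower doses, without overlap (0.31 ± 0.10, SE), while mef2ca differed by -0.22.

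In the list of 32 notochord and cartilage matrix genes the median was -0.01. The groups did not overlap for 3 higher members (fn1b, fn1a and lamc1; all probe sets 1.08%) and for 1 lower member, the matrilin gene matn1, which lay below the DsRed1 signal (-0.16; all probe sets 1.44%). Beside fn1b, its paralogue fn1a read 5.35, 5.29 and 5.27 at 5 mM, against 4.87, 5.01 and 5.06 at the lower doses, and the laminin gene lamc1 read 5.68, 5.85 and 5.88 at 5 mM, against 5.41, 5.56 and 5.67 at the lower doses. Neither pair of groups overlapped, and the differences were 0.32 and 0.24. On the lower side cavin1b, a caveolar coat gene, differed by -0.37 with overlap. The Hox genes hoxd9a and hoxb10a, which pattern the trunk, also lay higher without overlap, by 0.32 and 0.35, in a list of 40 with a median near 0. In the eye, the forebrain and lens factor six3b read 3.44, 3.32 and 3.26 at 5 mM, against 3.47, 3.69 and 3.85 at the lower doses, without overlap (-0.33 ± 0.10, SE), while its paralogue six3a differed by 0.19 and the retinal factor rx2 by -0.33. The pigment enzyme gene dct differed by -0.29 and the neural stem cell factor sox2 by -0.27.

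Yolk and lipid transport genes followed 1 array. The list means of its 51 genes were 5.20, 5.50 and 5.54 at 5 mM, against 5.44, 5.48 and 5.56 at the lower doses, so that 5 mM replicate 1 lay lowest and the others within the lower-dose range. The apolipoprotein gene apoa4a showed the same array, with 5.05, 6.01 and 6.12 at 5 mM, against 5.97, 6.15 and 6.26 at the lower doses. In apoea all 3 arrays at 5 mM were low, at 5.95, 6.23 and 5.85, against 6.08, 6.72 and 6.91 at the lower doses, with overlap (-0.55 ± 0.20, SE).

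No stress gene passed the test. In the 32 p53 and apoptosis genes, which respond to DNA damage, 20 lay higher at 5 mM (median 0.07) and 12 lower (all probe sets 52.4% lower). An unadjusted p under 0.05 (limma) was reached by 4 of the 32 on the higher side (all probe sets 1.37%). On the lower side it was reached by 0 (all probe sets 1.81%). The groups did not overlap for 2 higher members (all probe sets 1.08%) and 1 lower member (all probe sets 1.44%). Among the higher members, the antiproliferative gene btg2 read 7.68, 7.74 and 7.74 at 5 mM, against 7.39, 7.50 and 7.56 at the lower doses, without overlap. The cell death gene bbc3 differed by 0.32 and phlda3 by 0.27, both with overlap. In the clock list per2 differed by 0.43 with overlap. Of 73 cytosolic ribosome genes 57 lay higher, but the median was 0.04, and after quantile normalization 42 lay higher. The lists for the cell cycle, heat shock, respiratory chain and endoplasmic reticulum had medians within 0.01 of 0 without further scaling. After quantile normalization the respiratory chain median was -0.020, with 47 of 74 genes lower (all probe sets 7755 of 15502), and the cell cycle median was -0.014. By dose, the unscaled respiratory chain median was -0.06 against 0.625 mM and 0.04 against 0.00625 mM.

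**Figure D5:**
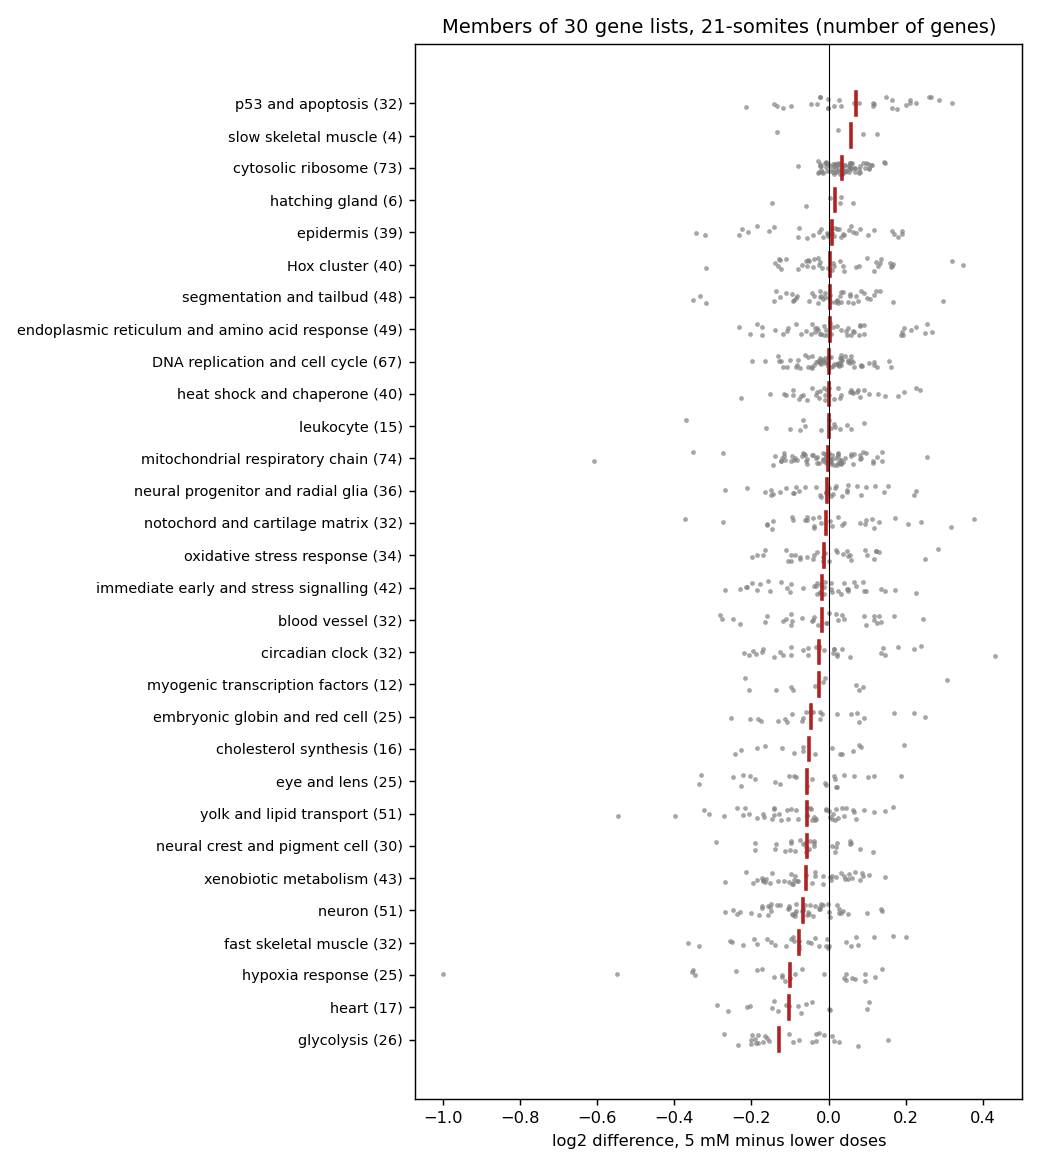
Each point is a gene of 1 of the 30 lists (number of genes in brackets), placed at its log2 difference, 5 mM minus lower doses, and red bars are list medians. The medians run between -0.13 for glycolysis and 0.07 for p53 and apoptosis, and egln3 lies farthest out at -1.0.

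The developmental age of the groups was compared with a stage score, built from the 300 probe sets most higher and the 300 most lower at Prim-5 than at 6-somites in the lower-dose arrays and scaled so that 6-somites is 0 and Prim-5 is 100. The 5 mM arrays scored 64.0, 67.2 and 63.7, against 64.2, 65.4 and 68.0 as the lowest, median and highest of the lower-dose arrays. The groups overlapped, with a difference of -0.81 (exact permutation test, two-sided, p = 0.488, where 0.0119 is the smallest p that the 84 splits allow). The 21-somites controls scored 66.8 to 71.2.

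The same comparison at the other stages also gave few calls, and no difference between stages passed. At 6-somites 0 of 15502 probe sets passed (0%), the smallest adjusted p being 0.173 (limma), and 1284 reached an unadjusted p under 0.05 (8.28%). At Prim-5 1 passed (0.00645%), the ubiquitin-conjugating enzyme gene ube2d2l, which fell by 0.70 with an adjusted p of 0.0476 (limma) and differed by 0.07 at 21-somites, and 845 reached an unadjusted p under 0.05 (5.45%). The difference between 21-somites and 6-somites passed for 0 probe sets (0%), the smallest adjusted p being 1.00 (limma), and 690 reached an unadjusted p under 0.05 (4.45%). The difference between 21-somites and Prim-5 passed for 0 (0%), the smallest adjusted p being 0.857 (limma), and 893 reached an unadjusted p under 0.05 (5.76%). In that last comparison fn1b stood out at 0.61 and ube2d2l at 0.77, and on the other side sqor at -0.75 and cd248b at -0.68. Against 6-somites farp2 stood out at 0.69, and on the other side glra4b at -0.62 and si:dkey-260j18.2 at -0.60. The slow myosin gene smyhc1 stood at 0.67 there, with a difference of -0.58 at 6-somites and 0.09 at 21-somites.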

How the data were processed

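Total RNA was amplified with a NuGEN kit, labelled with biotin and hybridised to 1-colour Affymetrix arrays, per the labels' protocols. The authors deposited 1 table of log2 values per probe set. Its log2 scale was read from the values, and how the authors corrected, summarised and normalized the signals is not given in the labels or the file header. No further scaling was applied. Scanner files were not used here, so scan batches were not examined, and arrays have no read depth: the 3 arrays of a group limit precision. The 115 manufacturer's control probe sets were left out. Of 15502 tested, 10795 had 1 gene symbol, 135 several and 4572 none.

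The 27 MTBE arrays in 9 groups of stage and dose were fitted together (limma 3.58.1 in R 4.3.3, lmFit and eBayes), without replicate block, and 5 mM was set against the mean of 0.625 and 0.00625 mM, with Benjamini-Hochberg adjustment over all probe sets. The script was tested on simulated data. A gene in a list is represented by its brightest probe set. Named genes are the 10 with the smallest p each way when under 5 pass, up to 4 per list, up to 3 each way in other comparisons, and vegfaa, vegfab and vegfc. The ddit4 values and the 3-stage krt91 comparison were chosen after their values were seen. The groups, members and lists were chosen with earlier results of these data known. Replicate numbers were not used to pair the arrays. Same-numbered arrays correlated between -0.31 and 0.24 in their deviations, other-numbered ones between -0.24 and 0.31. These correlations do not show whether single genes vary with the replicate number. Alternatives were quantile and cyclic loess scaling, 50 added on the linear scale, a filter at the median level, other sets of arrays, an intensity trend, array weights, a replicate block, and each array left out.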

Additional observations from a re-analysis of the deposited data

Results flagged for a closer look

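In 7 of 159 results tested, 1 of the 6 lower-dose arrays at 21-somites stood apart from the other 5, by a gap that exceeds 0.625 of the group's range. Chance flags about 1 in 20 such groups. The share of the range was 0.678 for zgc:92594 (0.00625 mM replicate 1 at 2.69, the others between 2.33 and 2.44), 0.763 for glg1a (0.625 mM replicate 1 at 4.19, the others between 3.82 and 3.91) and 0.699 for rab3gap1 (0.00625 mM replicate 3 at 3.37, the others between 2.78 and 2.96). For zgc:92594 that array reached the 5 mM range, which began at 2.68. For glg1a and rab3gap1 it lay on the far side from the 5 mM arrays. The share was 0.648 for six3a (0.00625 mM replicate 1 at 3.34), 0.754 for slbp, a histone messenger RNA binding protein (0.625 mM replicate 3 at 7.10), 0.748 for cdt1, a replication licensing factor (0.625 mM replicate 3 at 3.85), and 0.799 for the ribosomal protein gene rpl19 (0.00625 mM replicate 2 at 9.73). The arrays that stood apart were 5 different ones.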

How the results depend on the processing

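The comparison of 5 mM with both lower doses gave 0 calls under all 19 alternatives, with a smallest adjusted p of 0.0618 (LOC567909, with the replicate block). Against 0.00625 mM alone, 0 calls became 1 with only the 9 arrays of the stage (p4ha1b, -0.95, adjusted p 0.0105), 2 with array weights (dao.1 at -0.74 and ndufa4b at -0.54, both 0.0317) and 1 with the replicate block (LOC567909, 1.24, 0.00704). Leaving out 1 array gave 0 to 2 calls: without 0.00625 mM replicate 2, dao.1 (-0.88, 0.0419) and egln3 (-2.51, 0.0159); without 0.00625 mM replicate 3 (1.62, 0.0146) or 0.625 mM replicate 1 (1.24, 0.0384), LOC567909. The comparison of 0.625 with 0.00625 mM gave 0 to 1, egln3 at -2.39 (0.0362) without 0.00625 mM replicate 2. The cause was not tested. The difference of vegfc turned to -0.00057 with 50 added, and leaving out 1 array moved it between -0.11 and 0.17. The differences of the 20 leading genes and of vegfaa kept their sign in every setting run. With 50 added, which by construction shrinks differences of dim genes, 19 of the 20 moved over 1.5 times, among them LOC567909 to 0.24, krt91 to -0.13, gria2b to -0.03 and ndufa4b to -0.016, and the 3-stage mean of krt91 was -0.12. The 3-stage mean of krt91 passed in 8 of 8 other settings and in 27 of 27 fits without 1 array (adjusted p up to 0.0376). These passes are not independent support, since the mean includes the stage by which krt91 was picked. Over the other stages alone, krt91 did not pass in any of these settings or fits (adjusted p between 0.128 and 0.608, limma). The stage score difference lay between -1.93 and -0.18, with exact permutation p down to 0.0714. Arrays give no read depth, and dim genes lie near the level of probe sets for proteins the labels do not list.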
